A study of Mus musculus with 6 samples.

Results

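The imprinted domain of mouse chromosome 12 was described here through 7 genes, Begain, Dlk1, Meg3, Rtl1, Rian, Mirg and Dio3, out of 27179 rows of a table of liver gene expression. They were found by their symbols, and each had exactly 1 row. The genes had been chosen by their measured values in this table, so their levels are given as a description and no test was made on them. Livers came from 6 C57BL/6 mice that all carried floxed Lsd1 alleles and all ate a high-fat diet. In the 3 LSD1-LKO mice an adeno-associated virus of serotype AAV8 delivered Cre recombinase under the hepatocyte promoter TBG, and in the 3 Control mice the same kind of virus delivered GFP, injected at 6 to 7 weeks of age. Cre was thus aimed at hepatocytes and not at the other cells of the liver. The diet lasted 12 weeks by the series text but less by the methods of the study, and this was not resolved. Sex is not among the labels. Poly-A RNA was sequenced.

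Imprinted genes are expressed from the copy of only 1 parent. In this domain the maternal copy gives long noncoding RNAs, namely Meg3, Rian (which carries small nucleolar RNAs of the C/D type) and Mirg (which carries microRNAs). The paternal copy gives the proteins DLK1 (a membrane protein related to the Notch ligands), RTL1 (derived from a retrotransposon) and, preferentially, DIO3 (the deiodinase that inactivates thyroid hormone). Methylation of a control region upstream of Meg3 keeps the copies apart. The domain is active in the fetus and placenta and falls silent in many adult tissues, while Meg3 stays high in the adult brain and pituitary.

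The value in the table is the base mean, the count of a gene divided by the size factor of its library and averaged over all 6 libraries. A base mean of 1 therefore stands for about 1 normalized count per library. Base means summed to 2.07e+07 over all rows. 18442 rows were above 0 and 8737 were at 0. A base mean is a sum of whole counts, each worth a fixed amount per library, and for low rows these whole counts could be recovered. Of the 5563 rows above 0 and up to 10, 5563 had exactly 1 set of whole counts that gave the printed digits, and so had 1651 of the 1651 rows from 20 to 60. A formula for evenly spread sums put the sets met by chance in the latter rows at about 28.9 in total. Yet 0 of them had more than 1 set, so the formula was not met here and does not measure the error of the recovery. The libraries carry no name in this recovery. They are lettered A to F here in order of falling size factor, from 1.09 in A to 0.928 in F, and no label or column name ties a letter to Control or LSD1-LKO. The columns of the authors' own comparison were not used, so letters were not assigned to groups, no comparison between the groups was made, and values are given library by library. Intervals of counts are exact 95% Poisson intervals, which take 1 count as 1 read and cover counting error only. Intervals of a ratio are exact conditional binomial intervals on the same counts. The libraries of a ratio, and those whose intervals are set side by side for Meg3 and Rian, were picked as the highest and lowest of 6. The coverage of such an interval can thus be below 95%, and it is no test of a difference.

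Most counts of the cluster came from a pair of noncoding RNAs. Meg3 held 65.1% and Rian 28.7% of the summed base mean of the 7 members, and Dio3 held 4.95%. Mirg, Dlk1 and Rtl1 were each below a base mean of 1, and Begain was the only member listed at 0. The 8 hepatocyte markers had levels of 252 to 78821 per kilobase (base mean over transcript length, rescaled so that all rows with a length add up to the CPM total, as TPM does), highest for Alb, which encodes albumin, so the tissue was liver by its defining markers. In bulk tissue, fewer cells that express a gene and less RNA per cell cannot be told apart.

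Promoter windows of the 3 members with the highest base means are shown because they differ in the CpG and motifs they hold. Each runs from 250 bases before to 50 bases after a start site of RefSeq (build GRCm38.p6, the build also named mm10), 5′ to 3′ on the strand of the gene. Capitals mark a TATA box (TATAAA), the hexamer read by the imprint regulator ZFP57 (TGCCGC) or a GC box (GGGCGG), each searched on both strands.
Meg3, chr12:109540746-109541045, plus strand: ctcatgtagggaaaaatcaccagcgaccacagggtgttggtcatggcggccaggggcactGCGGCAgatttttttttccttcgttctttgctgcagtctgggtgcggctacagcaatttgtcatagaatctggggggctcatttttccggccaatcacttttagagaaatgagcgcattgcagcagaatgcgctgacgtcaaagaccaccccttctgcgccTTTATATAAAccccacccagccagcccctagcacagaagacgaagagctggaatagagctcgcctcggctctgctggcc
Rian, chr12:109603695-109603994, plus strand: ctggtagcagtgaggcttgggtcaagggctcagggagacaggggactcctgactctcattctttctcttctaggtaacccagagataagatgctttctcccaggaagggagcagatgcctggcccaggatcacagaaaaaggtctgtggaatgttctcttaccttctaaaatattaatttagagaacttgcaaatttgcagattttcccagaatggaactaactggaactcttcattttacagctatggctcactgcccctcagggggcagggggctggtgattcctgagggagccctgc
Dio3, chr12:110278980-110279279, plus strand: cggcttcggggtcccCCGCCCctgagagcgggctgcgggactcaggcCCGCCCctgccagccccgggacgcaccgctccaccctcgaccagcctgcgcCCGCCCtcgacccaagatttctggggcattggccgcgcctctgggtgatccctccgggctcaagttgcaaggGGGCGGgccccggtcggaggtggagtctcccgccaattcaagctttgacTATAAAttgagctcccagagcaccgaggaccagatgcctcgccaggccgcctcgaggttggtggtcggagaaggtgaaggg

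The Meg3 window held a TATA box that began 25 bases before the start, and the same letters on the opposite strand overlapped it from 29 bases before the start. It also held 1 ZFP57 hexamer on the opposite strand, 190 bases before the start, and 13 CpG dinucleotides. Of all 32851 RefSeq windows of this length, 13.6% held a TATA box and 11.6% the hexamer. The Dio3 window held 1 TATA box, 31 bases before the start, with 4 GC boxes, a motif found in 35.7% of all windows, and 25 CpG. The Rian window held none of the 3 motifs and 0 CpG, against a median of 7 over all windows. A match is a description of letters, not evidence that a factor was bound. The other members ranged widely, with 9 CpG at Dlk1, 10 at Mirg and 34 to 46 in the 5 windows of Begain. The second RefSeq window of Meg3, at chr12:109545148-109545447, had 1 CpG and none of the motifs.

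Meg3, a maternally expressed noncoding RNA known as a growth suppressor that can bind Polycomb complex 2, is at chr12:109540996-109571729 on the plus strand. Its base mean was 58.9, which is 2.85 CPM (its base mean scaled so that all rows add up to the usual CPM total, not per length), and 44.1% of the rows above 0 were lower. Recovered counts were 13 in library A, 6 in B, 136 in C, 12 in D, 78 in E and 100 in F. Divided by size factors these were 11.9 normalized counts in A, 5.54 in B, 133 in C, 12.3 in D, 83.0 in E and 108 in F. C was highest and B lowest, and their intervals, 112 to 157 and 2.03 to 12.1, did not overlap. The ratio of C to B was 24.0 (95% interval 10.7 to 66.6). No other set of counts gave the printed digits, and 0.0877 sets would be met by chance at this level.

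Rian, the next long noncoding RNA downstream among the members, is at chr12:109603945-109661716 on the plus strand, 32215 bases beyond the end of Meg3. Its base mean was 25.9 (1.25 CPM), higher than 37.2% of the rows above 0. It had 5 counts in A, 2 in B, 53 in C, 1 in D, 50 in E and 40 in F. The normalized counts were 4.59 in A, 1.85 in B, 51.8 in C, 1.02 in D, 53.2 in E and 43.1 in F. E was highest and D lowest, with a ratio of 51.9 that rests on 1 count in D (95% interval 8.90 to 2092). The interval of E, 39.5 to 70.1, lay above that of D, 0.0259 to 5.71.

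**Figure D1:**
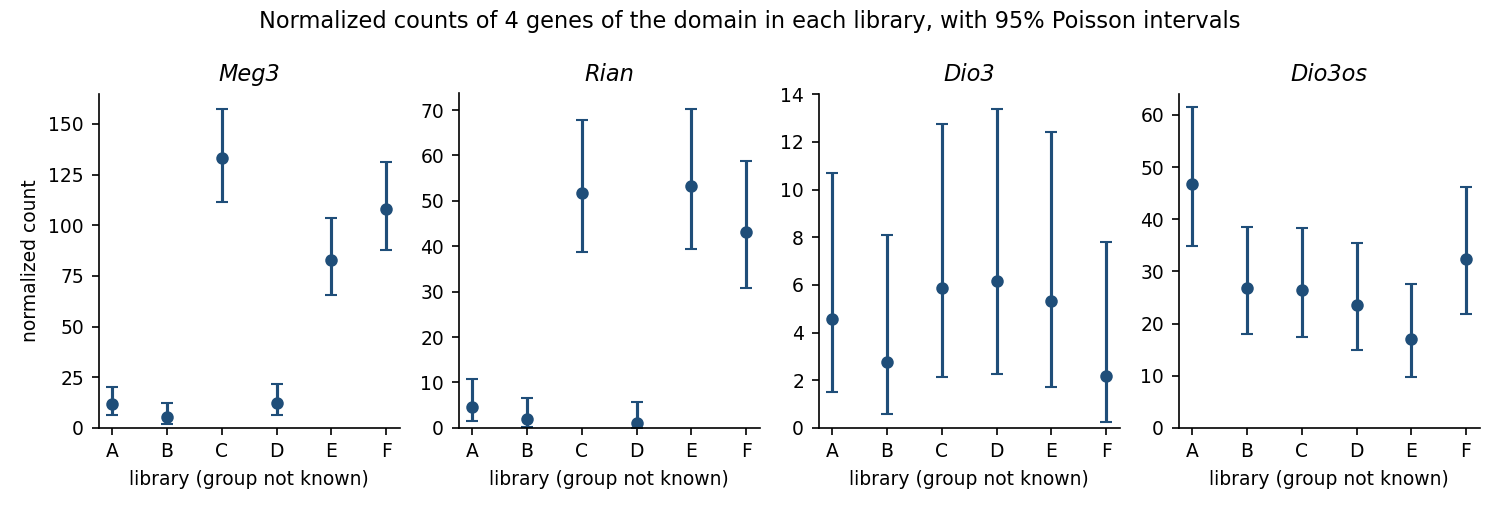
Normalized counts of Meg3, Rian, Dio3 and Dio3os (y axis) in libraries A to F (x axis), with points for the values and bars for exact 95% Poisson intervals. Meg3 ran from 5.54 to 133 and Rian from 1.02 to 53.2, while the intervals of Dio3 overlap in all libraries and its values stay between 2.15 and 6.14.

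The spread of Meg3 and Rian over libraries was wide beside that of other rows at like levels. Among the 1651 rows with a base mean from 20 to 60, the highest library exceeded the lowest by a median of 1.96-fold, and the 90th percentile was 4.77-fold. The ratio of Meg3 was reached or passed by 26 of these rows (1.57%), counting as passed the 7 rows with 0 counts in a library, and that of Rian by 12 rows (0.727%). Both values are descriptions, since the genes were chosen with results of these libraries known.

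**Figure D2:**
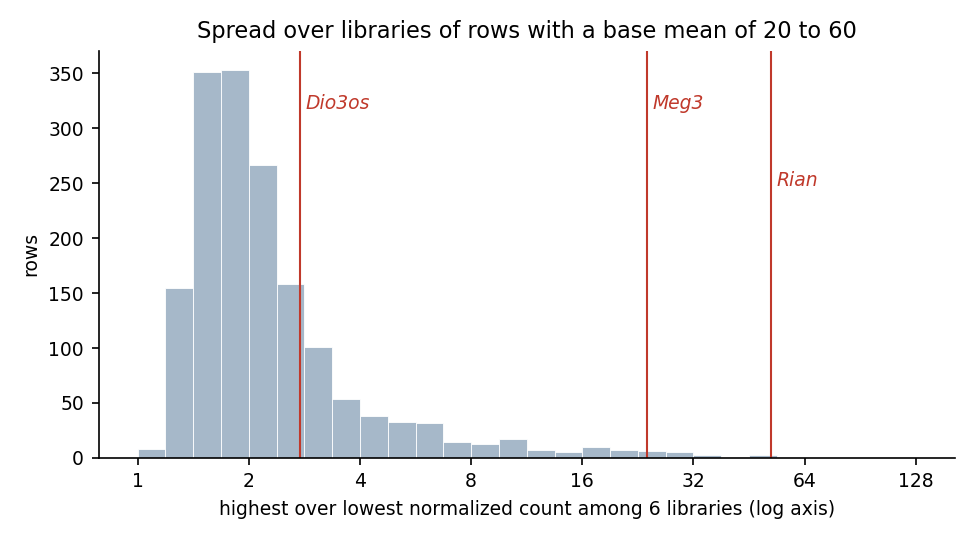
Number of rows (y axis) by the ratio of the highest to the lowest normalized count among the 6 libraries (x axis, log scale), for rows with a base mean from 20 to 60; the 7 rows with 0 counts in a library are not drawn. Red lines mark Dio3os at 2.75, Meg3 at 24.0 and Rian at 51.9, against a median of 1.96.

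Dio3, at chr12:110279230-110281097 on the plus strand, encodes the deiodinase that inactivates thyroid hormone. Its base mean was 4.47 (0.217 CPM), higher than 24.5% of the rows above 0. It had 5 counts in A, 3 in B, 6 in C, 6 in D, 5 in E and 2 in F, or 4.59, 2.77, 5.86, 6.14, 5.32 and 2.15 normalized counts. Library D was highest and F lowest, a ratio of 2.85 with a 95% interval of 0.510 to 28.9, so a difference between libraries was not detectable at this depth. Its antisense neighbour Dio3os, a noncoding RNA at chr12:110275384-110278068 on the minus strand, had a base mean of 28.8. Normalized counts of Dio3os were 46.8 in A, 26.8 in B, 26.4 in C, 23.6 in D, 17.0 in E and 32.3 in F. A was highest and E lowest, a ratio of 2.75 (95% interval 1.54 to 5.16) that 22.8% of rows from 20 to 60 reached or passed. The RefSeq spans of Dio3 and Dio3os do not overlap.

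Mirg, the microRNA host at chr12:109734981-109749458 on the plus strand, had 3 counts in all, 2 in library C and 1 in E, for a base mean of 0.503. Dlk1, at chr12:109452485-109463336 on the plus strand, also had 3 counts, 1 in A and 2 in C, for a base mean of 0.479. Rtl1, at chr12:109564900-109604418 on the minus strand, had 1 count, in A, for a base mean of 0.153. For a library without a count of such a gene, a count of 0 allows up to 3 counts by a one-sided limit, which is 2.75 normalized counts in A and 3.23 in F, and the interval used elsewhere here reaches 3.38 in A and 3.97 in F. Differences between libraries were not detectable for these 3 genes. The RefSeq span of Rtl1 shares 6830 bases with Meg3 and 474 with Rian on the opposite strand, and whether counting used strand is not given in the sources used here, so reads of these genes may not be told apart where they overlap. Begain, a protein-coding gene at chr12:109032181-109068242 on the minus strand, known in the rat as an interactor of the postsynaptic guanylate kinase PSD-95, was listed at 0, hence with 0 counts in all 6 libraries.

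The order of the members by mean over all 6 libraries was Meg3, Rian, Dio3, Mirg, Dlk1, Rtl1, Begain. It was the same per kilobase of the longest GENCODE transcript. On this rescaled scale per kilobase, Meg3 was at 0.405, Rian at 0.321 and Dio3 at 0.220, a much closer spacing than on the scale without length. Meg3 and Rian overlapped in the range of their normalized counts over libraries, as did Mirg, Dlk1 and Rtl1 among themselves. The place of Rian above Dio3 did not hold in every library. Both were at 4.59 in A, and Rian was below Dio3 in B (1.85 and 2.77) and D (1.02 and 6.14). In C, E and F Rian was above Dio3. Per kilobase of the longest transcript (14548 bases for Meg3, 8089 for Rian and 2030 for Dio3), the order also differed by library. Dio3 lay above Meg3 and Rian in A, B and D, and below both in C, E and F. The value of Meg3 depends on the transcript taken, since its 11 GENCODE transcripts run from 421 to 14548 bases. With the shortest transcript of every gene, and the scaling redone over all rows, the values were 3.37 for Meg3, 2.12 for Rian and 0.0743 for Dio3, in the same order.

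From Begain to Dio3 the domain spans 1250 kb and holds 106 RefSeq genes, of which 75 had a row. Of these rows 65 were at 0 (86.7%). The 10 rows above 0 were Dlk1, Meg3, Rtl1, Rian, AF357359, Mir668, Mirg, Dio3os, Mir1247 and Dio3. AF357359, a small nucleolar RNA within the span of Rian, had 1 count in library C and 3 in E. Without microRNA and small nucleolar RNA genes, 3 of 10 rows were at 0. By type, long noncoding RNA genes were at 0 in 2 of 6 rows (33.3%), beside 1014 of 2077 (48.8%) in the whole table. Protein-coding genes were at 0 in 1 of 4 rows (25%), beside 5184 of 20983 (24.7%). Small nucleolar RNA genes were at 0 in 6 of 7 rows (85.7%), beside 32 of 123 (26%). MicroRNA genes were at 0 in 56 of 58 rows (96.6%), beside 550 of 643 (85.5%) in the whole table. Poly-A libraries do not capture mature microRNAs, so these rows say nothing of mature levels.

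**Figure D3:**
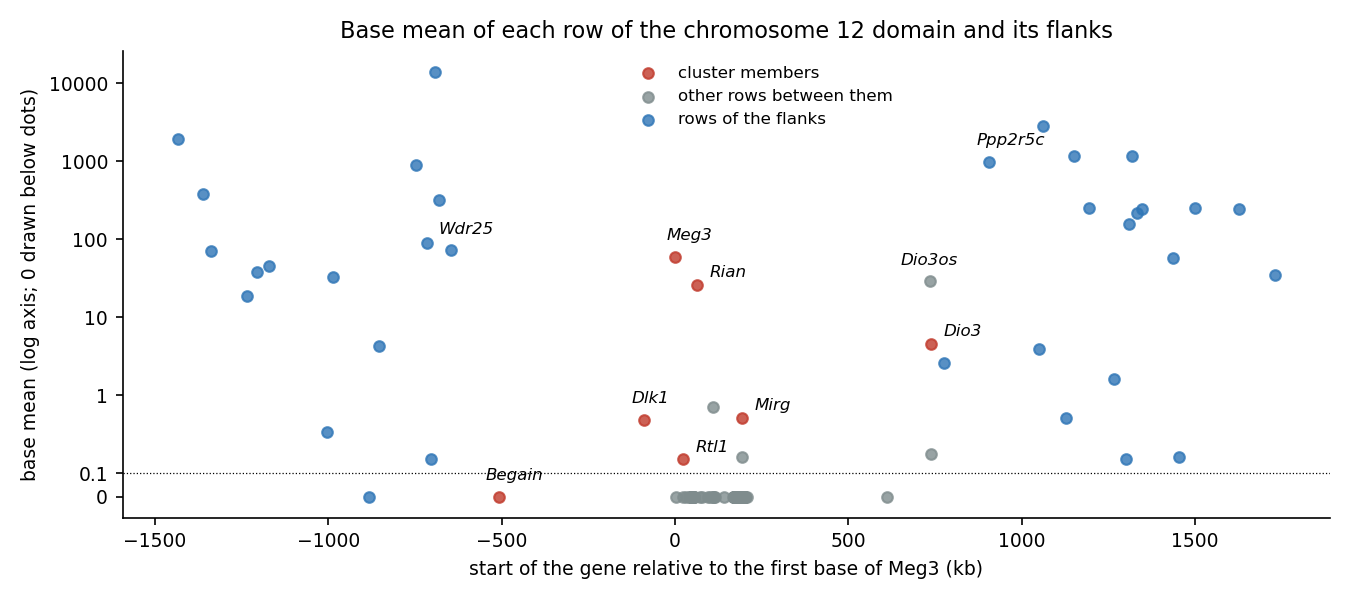
Base mean (y axis, log scale, rows at 0 drawn under the dotted line) of each row against the distance of its start from that of Meg3 in kb (x axis), for cluster members, other rows between them and rows within 1000 kb on either side. Meg3 (58.9), Dio3os (28.8) and Rian (25.9) have the 3 highest base means between Begain and Dio3, and 65 of 75 rows there lie at 0.

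Among 26 protein-coding rows of the flanks, within 1000 kb on either side, 0 were at 0, beside 1 of 4 protein-coding rows (Begain) from Begain to Dio3. Over all protein-coding rows the share at 0 was 24.7%, close to the 25% from Begain to Dio3. By this count the flanks, and not the domain, differed from protein-coding rows at large. The median base mean of the 26 was 186, from 0.504 to 13932. Over all gene types, 1 row of the flanks, the microRNA gene Mir342, was at 0, so that 66 of 109 rows were at 0 with the flanks included. The nearest row above 0 upstream of Begain was Wdr25, at 72.2, and the nearest protein-coding row downstream of Dio3 was Ppp2r5c, a subunit of protein phosphatase 2A, at 978. Slc25a47, a mitochondrial carrier of the liver, gave the highest base mean of the flanks. These counts are descriptions without a test.

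The microRNAs of the domain are shown by seed, since shared seeds define which targets they can have in common. RefSeq gave 114 mature sequences from 58 hairpins between Begain and Dio3, with 104 distinct seeds, and 9 seeds were shared by a pair. Sequences run 5′ to 3′ with the seed, bases 2 to 8, in capitals. The first set lies in the span of Meg3 or Rian, the members with most counts, and the next holds the microRNA genes that had a count, Mir668 with 1 in library C and Mir1247 with 1 in library E. The last set shows pairs with 1 seed.
miR-1906: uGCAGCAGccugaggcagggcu
miR-770-5p: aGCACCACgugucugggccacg
miR-770-3p: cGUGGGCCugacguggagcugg
miR-1188-5p: uGGUGUGAgguugggccagga
miR-370-5p: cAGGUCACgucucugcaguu
miR-370-3p: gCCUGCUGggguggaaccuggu
miR-668-5p: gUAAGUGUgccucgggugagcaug
miR-668-3p: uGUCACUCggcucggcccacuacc
miR-1247-5p: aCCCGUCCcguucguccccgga
miR-1247-3p: cGGGAACGucgagacuggagc
miR-379-5p: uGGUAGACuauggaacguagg
miR-1193-5p: uGGUAGACcggugacguaca
miR-1193-3p: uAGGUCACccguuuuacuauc
miR-379-3p: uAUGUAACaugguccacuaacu
miR-411-3p: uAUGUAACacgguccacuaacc

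In these sets miR-379-5p shares its seed with miR-1193-5p, miR-1193-3p with miR-370-5p, and miR-379-3p with miR-411-3p. Rows of Mir1906-1, Mir770, Mir1188, Mir370, Mir379, Mir1193 and Mir411 were at 0. Mir668 begins 249 bases before Mirg, within the promoter window of that gene, and Mir1247 overlaps the start of Dio3os on the same strand.

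Other imprinted genes of the mouse served as a setting for these levels. Of 22 such genes, 3 were at 0 (Magel2, Snrpn and Usp29), and the median base mean was 20.1 (0.974 CPM). Levels per kilobase of the longest transcript were above that of Meg3 for 13 of them and above that of Rian for 15. With the shortest transcripts Meg3 was at 3.37 and Rian at 2.12, and their places among these genes were not determined on that scale. By base mean, without length, 10 were above Meg3 and 10 above Rian. These places rest on means over all 6 libraries, over which Meg3 ran from 5.54 to 133 normalized counts and Rian from 1.02 to 53.2. Zrsr1, Igf2r and Ube3a were highest per kilobase, at 10.7, 9.51 and 8.17, while Igf2, a fetal growth factor, was at 0.211, close to Dio3 at 0.220. Mirg at 0.0132, Dlk1 at 0.0103 and Rtl1 at 0.00241 per kilobase were among the lowest of the genes compared.

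**Figure D4:**
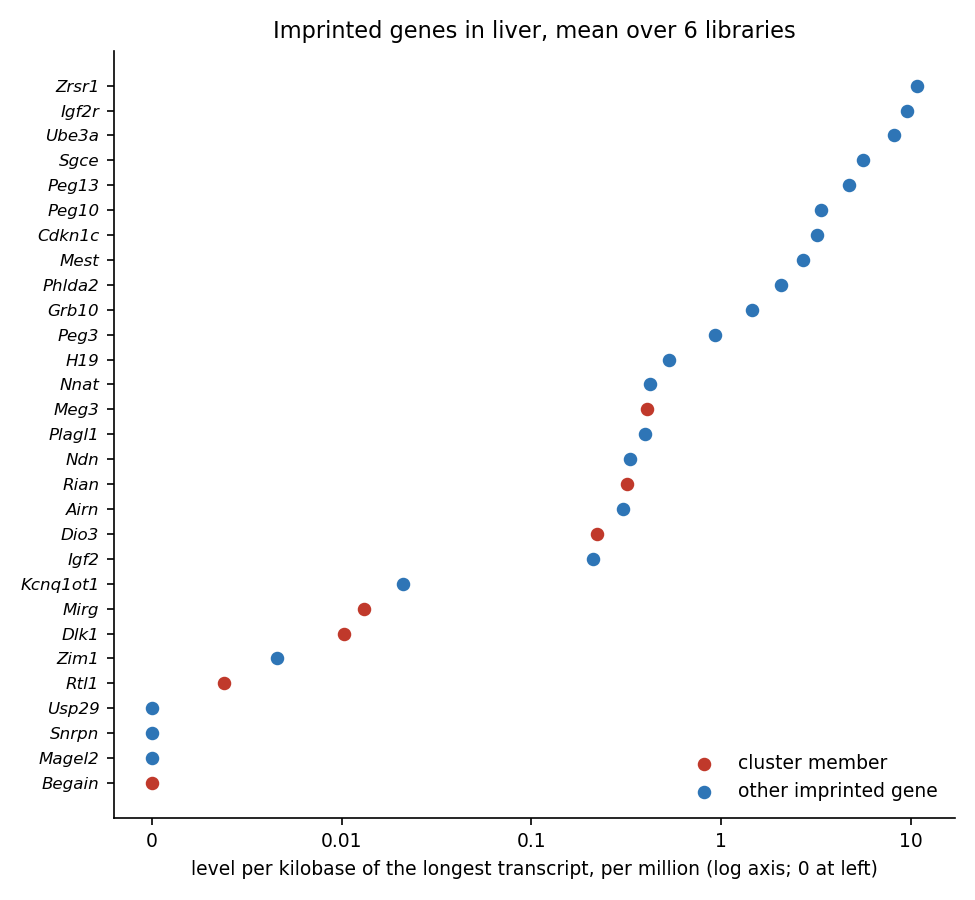
Mean level over 6 libraries per kilobase of the longest transcript, rescaled as TPM (x axis, log scale, 0 at the left) of the cluster members (red) and 22 other imprinted genes (blue), in order of level (y axis). Meg3 (0.405) and Rian (0.321) lie in the middle of the order, and Mirg, Dlk1, Rtl1 and Begain near its low end.

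Genes that act with the members are given on the rescaled scale per kilobase, on which Meg3 was at 0.405. The 8 rows of Polycomb complex 2, which Meg3 can bind, ran from 2.86 (Ezh2) to 55.9 (Rbbp7). Of 14 regulators of imprints 0 were at 0. Zfp445, which with ZFP57 guards imprints, was at 59.4 and Trim28, their shared corepressor, at 35.8, but Zfp57 itself was at 0.135, with 21 counts in all. Zfp57 was not alone in this, since Uhrf1 was at 0.146, Dppa3 at 0.0826, Tet1 at 0.0228 and Dnmt3l at 0.00937. Dnmt3l had 1 count in all and Dppa3 had 4. The 9 genes of microRNA processing ran from 0.659 (Ago3) to 11.6 (Dicer1). The 4 proteins of C/D small nucleolar ribonucleoproteins, the particles that the small RNAs of Rian enter, ran from 3.98 (Nop58) to 6.51 (Fbl).

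Partners and relatives of the protein-coding members are given on the same scale, on which Dio3 was at 0.220 and Dlk1 at 0.0103. In the Notch pathway, on which DLK1 acts as an inhibitor in cell culture, 13 of 14 rows were above 0, with Notch2 at 9.56 and Hes1, a target of the pathway, at 10.2, while Dlk2, the paralog of Dlk1, had 1 count in all. The deiodinase Dio1 was at 301, and Dio2, which activates thyroid hormone, was listed at 0. The 5 genes of selenoprotein synthesis, which DIO3 needs as a selenoenzyme, ran from 3.15 (Pstk) to 992 (Sephs2). Of 10 rows for relatives of Rtl1, 3 were at 0 (Rtl4, Rtl9 and Ldoc1), and Rtl8c was highest at 4.81. Among fetal liver genes, Afp was at 2.46, Gpc3 at 1.17 and Igf2 at 0.211.

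Markers of cells other than hepatocytes were present. On the same scale per kilobase, 5 Kupffer cell markers ran from 3.97 to 50.8, 6 endothelial markers from 7.42 to 60.7, 6 stellate cell markers from 5.08 to 119, 5 cholangiocyte markers from 0.478 to 79.7 and 4 lymphocyte markers from 0.142 to 1.98. Of 6 neuronal and pituitary markers, Snap25, Gh and Prl were at 0, while Stmn2 had 4 counts in all, Pomc 13 counts and Syt1 was at 5.16. Of 2 adrenal genes Cyp11b1 was at 0 and Star at 1.30. Of 3 muscle genes Ckm and Acta1 were at 0, and Myh1 had 1 count in all. Counts per library could be recovered for 3 of the 5 cholangiocyte markers. Normalized counts of Epcam ran from 15.6 in A to 57.2 in B, those of Krt7 from 10.2 in D to 31.4 in B and those of Krt19 from 17.4 in A to 40.6 in B. All 3 were highest in B, the library in which Meg3 was lowest, but Epcam was nearly as high in F (57.1), where Meg3 was at 108. Their part in the values of Meg3 was not tested.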

How the data were processed

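Poly-A RNA of 3 Control and 3 LSD1-LKO livers was sequenced. STAR (mapping, mm10), StringTie (transcripts) and DESeq2 (comparison) were run by the authors on Galaxy. The sources used here do not give versions, annotation or the use of strand. The deposited base mean is a signal, counts divided by size factors and averaged by the authors over all 6 livers. Deposited fold changes, errors, Wald statistics and p-values hold the authors' comparison and were not used. Columns with values per sample left unused numbered 0, and no test between groups was run.

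Members and lists were chosen with earlier results of these data known. All 7 members are named, other genes by list or position. The microRNAs shown were picked after values were seen.

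A base mean is the sum of each library's whole count times a unit, 1 over 6 size factors. The 6 smallest distinct values gave the units, refined by least squares on 4936 rows. All sets of whole counts within the rounding of 15 printed digits were enumerated up to a base mean of 60, a step tested on simulated data. Counts came from StringTie, so 1 count need not be exactly 1 read. The low rows held 10798 to 14289 counts per library. CPM is base mean over the sum of base means. Levels per kilobase are base means over transcript length, rescaled to the same total. Transcript lengths came from GENCODE vM21, in place of planned RefSeq lengths, and 25275 rows matched RefSeq by Entrez identifier. Python 3.11.15, numpy 2.4.6 and scipy 1.17.1 were used. Alternatives concerned scale, denominator, transcript, filter, interval, promoter part, tolerance and libraries left out, the last 2 added after seeing the data.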

Additional observations from a re-analysis of the deposited data

How the results depend on the processing

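No paired analysis was possible because no result came from a test and the recovered libraries carry no replicate number. The planned normalization, filter, replicate and block alternatives for LSD1-LKO against Control were not run for the same reason. The order of the members by mean over all 6 libraries was the same per kilobase. Other definitions moved values as their construction sets. Meg3 went from 2.85 CPM to 0.405 (rescaled as TPM) per kilobase of the longest transcript, 3.37 of the shortest and 5.05 without the 100 highest rows, and Rian from 1.25 to 0.321, 2.12 and 2.22. Leaving out each library in turn (chosen after seeing the data) gave 2.13 to 3.37 for Meg3, with the lowest value without library C, and 0.991 to 1.5 for Rian, with the lowest without library E. The percentile of Meg3 was 62.0 among all rows and 19.9 among rows of at least 10, and that of Rian 57.4 and 10.1. Members at 0 numbered 1 by symbol or Entrez identifier, 4 under a base mean of 1 and 5 under 10. Rows of the interval at 0 were 65, 66 with 500 or 1000 kb added, and 3 without microRNA and small nucleolar RNA genes. The median of other imprinted genes was 2.95 CPM over rows above 0. CpG before the start numbered 10 for Meg3, 0 for Rian and 21 for Dio3. With 2 and 4 times the tolerance (chosen after seeing the data), Meg3, Rian and Dio3 each kept 1 set of counts. Depth limits Mirg, Dlk1 and Rtl1, with at most 3 counts each in all libraries.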

Other observations

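The values of Meg3 and Rian fell into separate clusters of libraries that no label names. Meg3 stood at 11.9, 5.54 and 12.3 normalized counts in libraries A, B and D and at 133, 83.0 and 108 in C, E and F. Rian stood at 4.59, 1.85 and 1.02 in A, B and D and at 51.8, 53.2 and 43.1 in C, E and F. No 95% Poisson interval of A, B or D overlapped one of C, E or F for either gene. The clusters were drawn from these same counts, so this is a description and lends the split no support. How many other rows split in this way was not counted. No label or column name ties these libraries to Control or LSD1-LKO and the columns of the authors' comparison were not used, so whether these clusters follow the groups of the study was not tested.

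Of the 22 other imprinted genes, 9 had recovered counts, and all 9 are given here, in the order of libraries A to F. The maternally expressed growth regulator Phlda2 had 0, 0, 40, 0, 34 and 17 counts. The maternally expressed noncoding RNA H19 had 9, 17, 15, 3, 14 and 15. Phlda2 was thus without a count in A, B and D, while H19 had counts in every library, fewest in D. Among the paternally expressed noncoding RNAs, Kcnq1ot1 had 12, 12, 25, 11, 24 and 31 counts and Airn 1, 5, 7, 4, 3 and 5. Kcnq1ot1 thus also had more counts in C, E and F than in A, B and D. Its intervals overlapped in part, as those of C (15.8 to 36.1 normalized counts) and A (5.69 to 19.2). The growth factor Igf2 had 16, 12, 8, 9, 12 and 4 counts, lowest in F. The zinc finger gene Plagl1 had 13, 35, 25, 14, 24 and 15, highest in B. Ndn, which encodes necdin, had 8, 17, 15, 16, 7 and 11, and Nnat, which encodes neuronatin, had 5, 8, 7, 7, 4 and 6. Zim1 had 0, 0, 0, 1, 0 and 1, too few to order the libraries. Relatives of Rtl1 with recovered counts are given in the same order. Rtl8b had 22, 20, 50, 20, 47 and 52, and no 95% Poisson interval of A, B or D overlapped one of C, E or F. Rtl8a had 21, 23, 46, 28, 47 and 62, with intervals that overlapped in part. Rtl8c had 19, 20, 18, 17, 25 and 17. Rtl5 had 21, 21, 11, 15, 6 and 10. Rtl6 had 4, 2, 9, 2, 8 and 4, and Rtl3 had 1, 1, 2, 0, 0 and 1.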
